A study of Mus musculus with 66 samples.

Results

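Gene expression was compared directly between cultured mouse neurons that received a short hairpin RNA (shRNA) against Dnmt3a and cultured mouse neurons that received an shRNA against Mbd5. The comparison takes every library labelled with either shRNA, 6 Dnmt3a shRNA and 6 Mbd5 shRNA libraries, which are 12 of the 66 libraries of the series. No control library enters it. All cultures came from wild-type e16.5 mouse embryos that had been separated by sex, and each shRNA had 3 libraries from female and 3 from male cultures. Lentivirus carried the hairpins. It was removed on culture day 6, and lysates were made on culture day 10. Per the labels, the dose of each virus had been set by RT-qPCR, aiming at roughly 50% of the target's transcript. Both groups therefore share delivery by lentivirus, the wild-type genotype and the culture schedule. They differ in the hairpin and may differ in virus dose, which was set for each virus. The labels name 1 shRNA treatment per target and do not give the hairpin sequences. They speak of wells infected in triplicate and do not say whether replicates came from separate cultures or litters, so the p-values below measure the spread between these samples, which may be technical. The 6 libraries with a nontargeting shRNA and the 6 without virus are quoted only to show on which side of the control level a gene lay.

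DNMT3A is a de novo DNA methyltransferase. In maturing neurons it adds methyl groups to cytosine at CG and at non-CG positions, and methyl-binding proteins read these marks. MBD5 carries a domain of the methyl-CpG-binding family and is known for its association with the PR-DUB complex, in which the deubiquitinase BAP1 removes ubiquitin from histone H2A. Loss of either gene in humans is linked to neurodevelopmental disorders. A direct comparison of the knockdowns asks how the transcriptome of neurons with less of the writer of DNA methylation differs from that of neurons with less of this family member.

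Levels are given as CPM, a library's read counts brought to a common total with scaling by the trimmed mean of M values (TMM). Values of replicates are listed in the order 1, 2 and 3. A log2 fold change is positive where the gene was higher with the Dnmt3a shRNA. It comes from edgeR's quasi-likelihood test with sex and replicate number together as a block of 6 levels, so that each Dnmt3a shRNA library is set against the Mbd5 shRNA library of the same sex and number. The Benjamini-Hochberg adjustment ran over all 14480 genes tested, and a gene is called where the adjusted p was under 0.05. The 12 libraries held between 16498188 and 66558546 counts. Summed CPM of 16 astrocyte and radial glia markers was highest in female replicate 1 in all 4 conditions (1546 with the Dnmt3a shRNA, 991 with the Mbd5 shRNA, 859 with the nontargeting shRNA, 1165 without virus).

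Both hairpins had lowered their own target and left the other at about its control level. Dnmt3a had 45.8, 120 and 75.7 CPM in the female and 84.5, 86.1 and 101 CPM in the male Dnmt3a shRNA libraries. In the Mbd5 shRNA libraries it had 266, 387 and 316 CPM in females and 385, 373 and 377 CPM in males. All 6 Dnmt3a shRNA libraries lay below all 6 Mbd5 shRNA libraries. Dnmt3a (chr12:3806007-3914443, plus strand, mm10) was at 24.4% of its mean in the Mbd5 shRNA libraries, with a log2 fold change of −2.08 (SE 0.0886, edgeR adjusted p = 3.4e-08), and the nontargeting libraries had 371 ± 52.3 CPM (SD, n = 6).

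Mbd5 (chr2:48949508-49325405, plus strand, mm10) moved the other way. It had 10.3, 20.9 and 12.3 CPM in female and 17.0, 16.6 and 17.1 CPM in male Mbd5 shRNA libraries, against 37.6, 48.4 and 37.6 CPM in female and 36.7, 40.0 and 51.3 CPM in male Dnmt3a shRNA libraries. The groups did not overlap, the Mbd5 shRNA libraries were at 37.4% of the mean of the Dnmt3a shRNA libraries, with a log2 fold change of 1.43 (SE 0.0931, edgeR adjusted p = 4.1e-07). The nontargeting libraries had 44.9 ± 7.69 CPM (SD, n = 6). Against these the log2 fold change of Mbd5 was −0.10 with the Dnmt3a shRNA (edgeR adjusted p = 0.41), and that of Dnmt3a was −0.09 with the Mbd5 shRNA (edgeR adjusted p = 0.57).

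**Figure D1:**
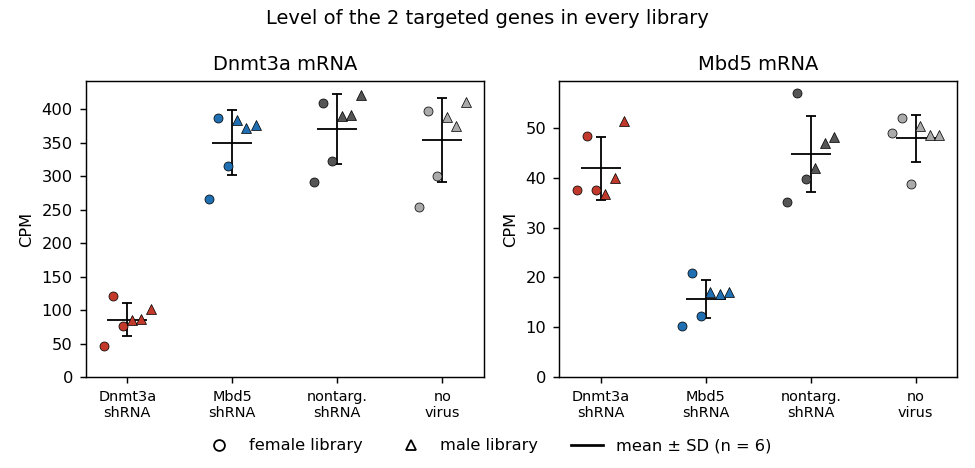
CPM of Dnmt3a (left) and Mbd5 (right) in each library with the Dnmt3a shRNA, the Mbd5 shRNA, the nontargeting shRNA and no virus; circles are female and triangles male libraries, and bars give the mean ± SD of 6 libraries. Dnmt3a lay between 45.8 and 120 CPM with its own shRNA and at 266 CPM or above with the Mbd5 shRNA, and Mbd5 lay between 10.3 and 20.9 CPM with its own shRNA and at 36.7 CPM or above with the Dnmt3a shRNA.

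Across the transcriptome 2980 genes were called, 20.6% of those tested. Of these 1426 (9.85%) were higher and 1554 (10.7%) lower with the Dnmt3a shRNA. Most differences were small. The median absolute log2 fold change of called genes was 0.34, and 70 higher and 64 lower genes differed by more than 2-fold. Of the called genes 2375 had the same sign in all 6 pairs of libraries, which their selection in these same pairs favours. In 221 genes (1.53% of those tested) all 6 Dnmt3a shRNA libraries lay above all 6 Mbd5 shRNA libraries, and in 260 (1.80%) they all lay below. The count of calls rests on the block. Without it 534 genes were called (3.69%), 251 higher (1.73%) and 283 lower (1.95%), and all 534 were also called in the same direction with it. In 12 fits with the block that each left out 1 library, the count was lowest at 2031, without Dnmt3a shRNA male replicate 2. It was highest at 3036, without Dnmt3a shRNA female replicate 3. Leaving out 1 library also leaves its partner without weight in the block. The 12 fits are therefore 6 pairs of nearly equal fits and not 12 separate checks.

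The effects in female and male cultures were not told apart by any gene. The sexes were fitted as separate effects in the same model, which called 983 genes in females (6.79%), 420 higher (2.90%) and 563 lower (3.89%), and 934 in males (6.45%), 484 higher (3.34%) and 450 lower (3.11%). All 2980 genes called over both sexes had the same sign in the female and the male effect. Their selection by the joint effect in the same libraries largely fixes this agreement. The test of the difference between the sexes called 0 of 14480 genes in edgeR (smallest edgeR adjusted p = 0.9998). There 370 genes had an unadjusted p under 0.05, a smaller share than the 0.05 expected if no gene differed. DESeq2 called 0 genes for the difference between the sexes, with 277 at an unadjusted p under 0.05. Without either library of pair male 3 edgeR called 5 genes for this difference. Without the block the counts were 10 in females and 3 in males. The female count was 144 without Dnmt3a shRNA female replicate 1, 638 without Dnmt3a shRNA female replicate 2 and 532 without Dnmt3a shRNA female replicate 3. The male count was 364 without Dnmt3a shRNA male replicate 1 and 165 without Dnmt3a shRNA male replicate 2, and leaving out the Mbd5 shRNA partner of any of these libraries gave counts between 147 and 638.

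**Figure D2:**
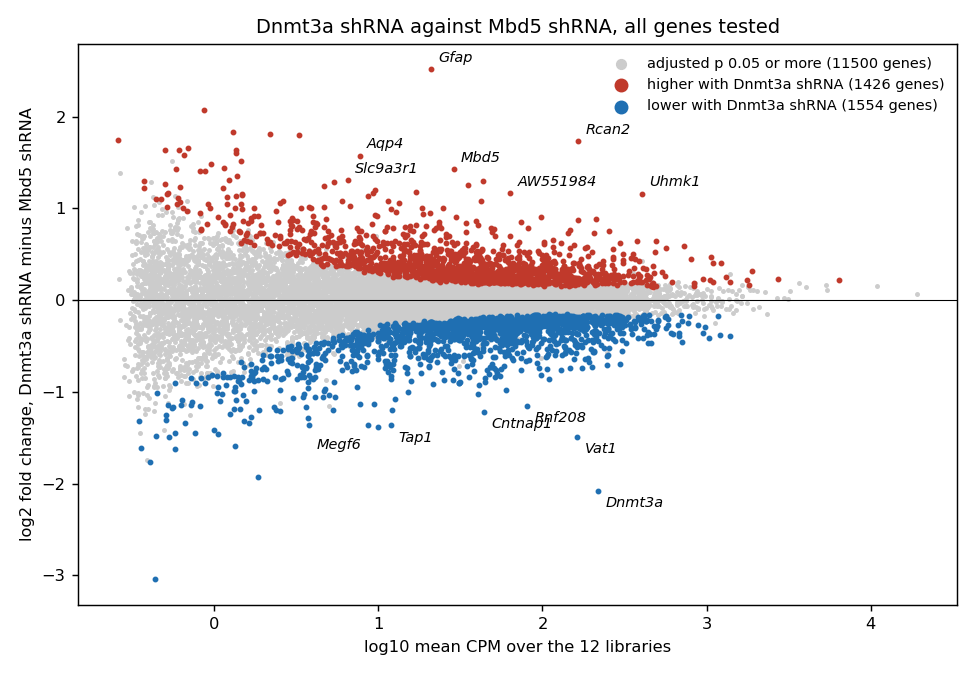
Log2 fold change of Dnmt3a shRNA minus Mbd5 shRNA (vertical axis) against log10 of the mean CPM over the 12 libraries (horizontal axis) for the 14480 genes tested, with 13 of the named genes labelled. Red points are the 1426 genes called higher with the Dnmt3a shRNA, blue points the 1554 called lower, and Gfap at 2.51 and Dnmt3a at −2.08 lie at the ends among genes of at least 5 CPM.

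The genes with the largest differences in each direction, at a mean of at least 5 CPM and with the same sign in all 6 pairs, are described first. Gfap, which encodes the intermediate filament protein of astrocytes, led the higher genes. It had 90.0, 8.20 and 28.0 CPM in female and 35.4, 34.3 and 21.0 CPM in male Dnmt3a shRNA libraries. In the Mbd5 shRNA libraries it had 11.3, 1.69 and 4.38 CPM in females and 3.86, 6.32 and 7.45 CPM in males. The groups overlapped, with the lowest value of both in female replicate 2 and the highest in female replicate 1, and within each pair the Dnmt3a shRNA library was higher. This was a log2 fold change of 2.51 (SE 0.211, edgeR adjusted p = 0.00011). It was 2.69 in females (SE 0.305) and 2.35 in males (SE 0.293), and between 2.38 and 2.75 when any library was left out. The nontargeting libraries had 8.12 ± 3.13 CPM (SD, n = 6), and against them the log2 fold change of Gfap was 1.91 with the Dnmt3a shRNA (edgeR adjusted p = 0.00053) and −0.60 with the Mbd5 shRNA (edgeR adjusted p = 0.24).

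A further astrocyte gene, Aqp4, which encodes the water channel of astrocyte endfeet, was away from the control in the Mbd5 shRNA libraries. It had 25.2, 5.83 and 8.67 CPM in female and 8.93, 12 and 9.69 CPM in male Dnmt3a shRNA libraries, against 4.48, 2.30 and 3.92 CPM and 2.15, 3.54 and 5.72 CPM with the Mbd5 shRNA. All 6 Dnmt3a shRNA libraries were above all 6 Mbd5 shRNA libraries, with a log2 fold change of 1.57 (SE 0.197, edgeR adjusted p = 0.00021). Against the nontargeting libraries (11.4 ± 4.42 CPM, SD, n = 6) the log2 fold change of Aqp4 was −0.04 with the Dnmt3a shRNA (edgeR adjusted p = 0.91) and −1.61 with the Mbd5 shRNA (edgeR adjusted p = 6.6e-05). Both comparisons with nontargeting share the same 6 control libraries. Over all 14795 genes of that fit, 17.8% were called with the Dnmt3a shRNA (7.97% higher, 9.81% lower) and 8.84% with the Mbd5 shRNA (3.56% higher, 5.28% lower).

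Rcan2, a regulator of the phosphatase calcineurin, had the same arrangement as Aqp4. It had 168, 315 and 189 CPM in female and 252, 288 and 289 CPM in male Dnmt3a shRNA libraries. With the Mbd5 shRNA it had 43.5, 166 and 69.9 CPM in females and 72.1, 71.5 and 58.3 CPM in males, so the groups did not overlap, though 168 and 166 CPM lay close. Its log2 ratio between the groups came to 1.73 (SE 0.185, edgeR adjusted p = 0.0011). Against nontargeting (265 ± 45.6 CPM, SD, n = 6) Rcan2 was at −0.11 with the Dnmt3a shRNA and −1.82 with the Mbd5 shRNA (edgeR adjusted p = 0.72 and 0.00011). Lypd6, a membrane-anchored modulator of nicotinic acetylcholine receptors, ranged from 9.21 to 17.3 CPM with the Dnmt3a shRNA and from 3.92 to 7.47 CPM with the Mbd5 shRNA, a log2 fold change of 1.17 (SE 0.111). Against nontargeting it was at −0.21 and −1.38 (edgeR adjusted p = 0.14 and 2.4e-08). Selenop, a secreted selenium carrier, and Zfp760, a zinc finger gene, had log2 fold changes of 1.29 and 1.17. Against nontargeting they were at 0.25 and 0.29 with the Dnmt3a shRNA, which did not pass, and at −1.05 and −0.90 with the Mbd5 shRNA, which did (edgeR adjusted p = 0.00011 and 6.8e-05).

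For other genes of the higher group the comparison with nontargeting passed with the Dnmt3a shRNA only, or with both hairpins. A comparison that did not pass does not place a group at the control level. Slc9a3r1, a PDZ scaffold of the plasma membrane, had 17.5, 5.30 and 9.03 CPM in female and 8.43, 6.77 and 9.40 CPM in male Dnmt3a shRNA libraries, all above the Mbd5 shRNA libraries, whose highest value was 5.03 CPM. Its difference on the log2 scale was 1.31 (SE 0.159, edgeR adjusted p = 4.6e-05), and against nontargeting it was at 0.89 and −0.42 (edgeR adjusted p = 0.0015 and 0.18). Crot, a peroxisomal carnitine acyltransferase, had a log2 fold change of 1.30. Against nontargeting Crot was at 0.83 and −0.50, and only the first passed (edgeR adjusted p = 0.021 and 0.20). In Lipa, the lysosomal acid lipase, AW551984, and Uhmk1, a kinase with an RNA-recognition-type domain, both groups had left the control level in opposite directions. Lipa had a log2 fold change of 1.20 between the groups and was at 0.61 and −0.60 against nontargeting, AW551984 at 1.17 with 0.43 and −0.73, and Uhmk1 at 1.16 with 0.35 and −0.82, and all 6 comparisons with nontargeting passed (highest edgeR adjusted p = 0.0080, for Uhmk1).

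Vat1 led the lower genes after Dnmt3a itself. It had 45.1, 141 and 92.3 CPM in female and 79.6, 90.4 and 80.4 CPM in male Dnmt3a shRNA libraries. With the Mbd5 shRNA it had 194, 303 and 239 CPM in females and 264, 242 and 183 CPM in males. The groups did not overlap, with a log2 fold change of −1.49 (SE 0.117, edgeR adjusted p = 3.1e-05). Against nontargeting (197 ± 22.6 CPM, SD, n = 6) Vat1 was at −1.22 with the Dnmt3a shRNA (edgeR adjusted p = 8.2e-05) and at 0.25 with the Mbd5 shRNA (edgeR adjusted p = 0.31). Of the exon bases of Vat1, 8.17% overlap exons of Rnd2 on the other strand, as 15.4% of those of Selenop overlap Ccdc152, and the strand setting of the counting is not given in the sources used here.

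The promoter windows of the leading higher gene and the leading lower gene other than the target show how differently supplied they are with CG dinucleotides, the main substrate of DNA methyltransferases. Both sequences span 250 bases before to 50 after the annotated start in RefSeq, build GRCm38.p6, with CG in capitals. DNA methylation itself was not measured in these libraries.
Gfap, chr11:102897151-102897450, minus strand: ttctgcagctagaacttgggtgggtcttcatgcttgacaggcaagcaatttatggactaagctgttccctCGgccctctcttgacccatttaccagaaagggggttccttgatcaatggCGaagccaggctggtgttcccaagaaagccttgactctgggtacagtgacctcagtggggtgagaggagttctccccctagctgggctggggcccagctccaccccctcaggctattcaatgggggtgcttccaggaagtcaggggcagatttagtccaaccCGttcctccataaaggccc
Vat1, chr11:101466150-101466449, minus strand: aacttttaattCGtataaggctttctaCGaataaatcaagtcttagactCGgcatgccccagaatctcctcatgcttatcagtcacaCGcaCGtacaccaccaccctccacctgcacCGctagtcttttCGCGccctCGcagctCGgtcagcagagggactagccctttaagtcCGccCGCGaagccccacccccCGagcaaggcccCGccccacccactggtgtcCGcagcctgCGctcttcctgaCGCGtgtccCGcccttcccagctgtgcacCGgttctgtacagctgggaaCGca
The Gfap window holds 3 CG, and 76.7% of the 32851 windows of the table hold at least as many. The Vat1 window holds 22, a number that 23.1% of windows reach, and the median window holds 7. Among the other named genes both directions held windows with few and with many CG. A relation between CG content and the direction of change was not tested. Of the higher genes, the windows of Selenop held 4, 4 and 8 CG and that of Lypd6 31. Of the lower genes, the windows of Arhgap36 held 3 and 7 CG and that of Pthlh 33. Windows were found for 78.5% of the genes tested, too few for a statement on CG content over all called genes.

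Cntnap1, the contactin-associated protein of the axon next to nodes of Ranvier, was similar to Vat1 in its placement. It had 12.5, 35.0 and 25.6 CPM in female and 29.5, 30.3 and 28.5 CPM in male Dnmt3a shRNA libraries, below every Mbd5 shRNA library, the lowest of which had 48.4 CPM. This was a log2 fold change of −1.22 (SE 0.107, edgeR adjusted p = 1.4e-05), with −0.98 and 0.23 against nontargeting (edgeR adjusted p = 3.7e-05 and 0.23). Rnf208, a RING finger gene, had −1.15 between the groups and −0.98 and 0.15 against nontargeting. Pthlh, which encodes parathyroid hormone-related protein, and Arhgap36, which antagonizes protein kinase A, were at −1.23 and −1.21 with the Dnmt3a shRNA and at −0.07 and −0.03 with the Mbd5 shRNA against nontargeting. Their log2 fold changes between the groups, −1.20 for both, came with weaker support than those of the genes above. Without the block neither passed (edgeR adjusted p = 0.30 for Pthlh and 0.11 for Arhgap36), and Arhgap36 also missed the threshold without Dnmt3a or Mbd5 shRNA female replicate 2 (edgeR adjusted p = 0.063 and 0.056).

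Tap1, which encodes a subunit of the peptide transporter of antigen presentation, was away from the control in the Mbd5 shRNA libraries. They had 21.8, 13.0 and 16.7 CPM in females and 19, 18.4 and 14.6 CPM in males, against 4.89 to 7.94 CPM in the Dnmt3a shRNA libraries and 7.83 ± 1.51 CPM (SD, n = 6) with nontargeting. The log2 fold change of Tap1 was −1.37 (SE 0.122, edgeR adjusted p = 4.3e-06), with −0.23 and 1.13 against nontargeting (edgeR adjusted p = 0.25 and 6.0e-06). Adcy7, an adenylate cyclase, and Capn1, the calcium-activated protease calpain, had log2 fold changes of −1.13 and −1.07. Against nontargeting only their Mbd5 shRNA values passed, at 0.78 and 0.74 (edgeR adjusted p = 0.00042 and 0.00030), while the Dnmt3a shRNA values were −0.35 and −0.32.

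Megf6, a gene for a protein with epidermal growth factor-like repeats, and Msn, the cytoskeletal linker moesin, left the control level in both groups. Megf6 had 4.63, 2.85 and 5.31 CPM in female and 8.33, 5.70 and 6.03 CPM in male Dnmt3a shRNA libraries, against 17.2, 6.47 and 12.2 CPM and 20.4, 15.2 and 15.1 CPM with the Mbd5 shRNA. This was a log2 fold change of −1.39 (SE 0.108, edgeR adjusted p = 1.2e-06), with −0.68 and 0.70 against nontargeting (edgeR adjusted p = 0.00018 and 0.00011). Msn had −1.36 between the groups, with −0.75 and 0.62 against nontargeting (edgeR adjusted p = 0.0076 and 0.029). Slc12a4, a potassium-chloride cotransporter, and Bcam, a laminin receptor, had −1.14 and −1.06 and completed the lower genes. Of the 25 genes described so far, both targets included, 23 passed without the block. In the model with an effect per sex, 23 passed in females and 22 in males. Apart from the targets, these genes had been chosen by call, size and sign in these same libraries, so the counts are no separate evidence.

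**Figure D3:**
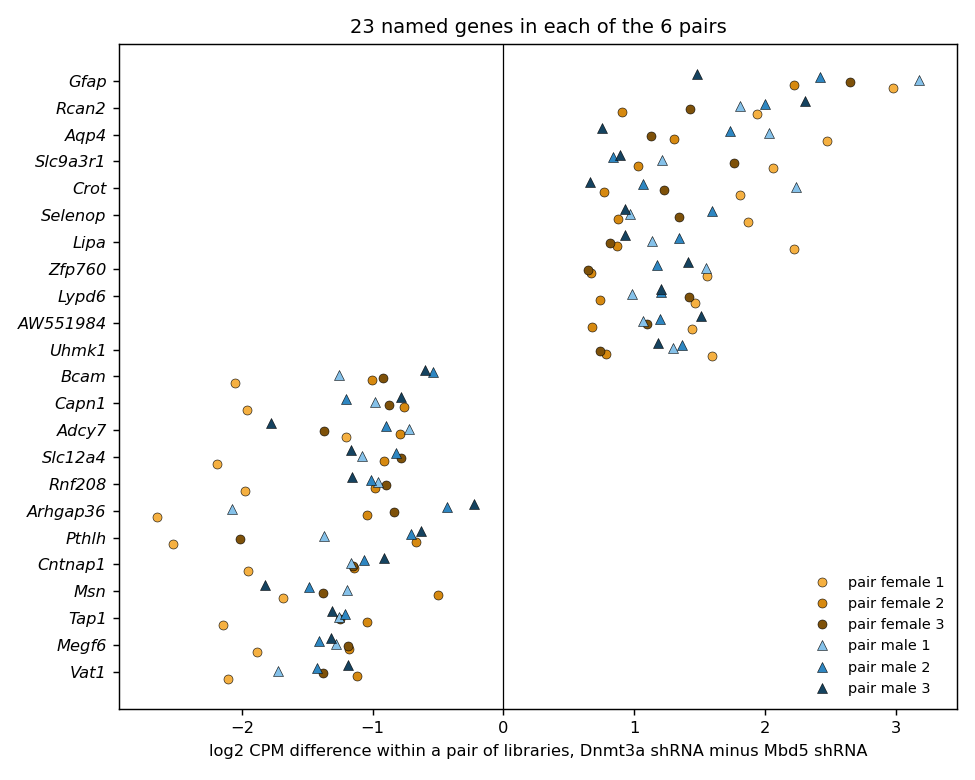
Difference of log2 CPM within each pair of libraries of the same sex and number, Dnmt3a shRNA minus Mbd5 shRNA, for 11 named higher and 12 named lower genes; circles are female and triangles male pairs. All 6 points of every gene lie on the same side of 0 by the rule that named them, and pair female 1 has the largest difference in 10 of the 12 lower genes.

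Gene lists were then read for this comparison. A list is described by how many of its tested members were called in each direction and by its median log2 fold change, beside 9.85% called higher, 10.7% called lower and a median of 0.01 over all genes tested. Each list's number of calls without the block is given as well.

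Calls in a single direction were found in the alpha cluster of protocadherins, cell-surface adhesion molecules whose clustered genes give single neurons different surface identities and whose promoter choice is linked to DNA methylation. Of 12 alpha members tested 11 were higher with the Dnmt3a shRNA and 0 lower, with a median log2 fold change of 0.76. Of 22 beta members 0 were higher and 1 lower (median −0.05), and of 20 gamma members 0 were higher and 4 lower (median −0.14). Pcdha5 had 11.7, 15.0 and 10.3 CPM in female and 16.1, 14.7 and 17.9 CPM in male Dnmt3a shRNA libraries, against 4.56, 10.9 and 7.20 CPM and 8.89, 7.63 and 10.6 CPM with the Mbd5 shRNA. All 6 pairs had the Dnmt3a shRNA library higher, although the ranges of Pcdha5 overlapped, with a log2 fold change of 0.79 (SE 0.112, edgeR adjusted p = 0.00013). Pcdha2 and Pcdha12 had 0.70 and 0.75.

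The alpha members were near the control with the Dnmt3a shRNA and below it with the Mbd5 shRNA. Their median log2 fold change against nontargeting was −0.15 with the Dnmt3a shRNA and −0.86 with the Mbd5 shRNA. Pcdha5 was at −0.09 and −0.88 (edgeR adjusted p = 0.58 and 5.1e-06), and Pcdha2 at −0.10 and −0.80 (edgeR adjusted p = 0.48 and 8.0e-06). The gamma member Pcdhgc4 went the other way. It ranged from 56.6 to 78.1 CPM with the Dnmt3a shRNA and from 68.2 to 108 CPM with the Mbd5 shRNA, a log2 fold change of −0.51 (SE 0.0634, edgeR adjusted p = 4.6e-05), with −0.05 and 0.47 against nontargeting. Members of the alpha cluster share constant exons, as do those of the gamma cluster, so counts of single members depend on how shared reads were assigned, which is not given in the sources used here. Of 54 clustered protocadherins 16 were called with the block and 4 without it, 3 of them higher, and 13 or 14 when any library was left out. The difference between the clusters was not tested.

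Astrocyte and radial glia markers included Gfap and Aqp4, described above. Of 16 members tested 6 were higher and 1 lower, with a median log2 fold change of 0.21. Fabp7, the fatty acid binding protein of radial glia and young astrocytes, had 853, 96.1 and 350 CPM in female and 274, 198 and 189 CPM in male Dnmt3a shRNA libraries. With the Mbd5 shRNA it had 429, 58.6 and 180 CPM in females and 136, 125 and 166 CPM in males. The ranges overlapped widely while each pair had the Dnmt3a shRNA library higher, and the log2 fold change of Fabp7 was 0.75 (SE 0.0961, edgeR adjusted p = 0.00024, and 0.43 without the block). S100b, a calcium-binding protein of astrocytes, had a log2 fold change of 1.52 (SE 0.26, edgeR adjusted p = 0.00068, and 0.081 without the block) at levels between 0.262 and 4.97 CPM.

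Other markers of the list did not pass or were lower. Slc1a2, a glutamate transporter, was named after its value was seen as the list's only lower member, at −0.24 (edgeR adjusted p = 0.020), a call lost without the block or without either library of pairs female 3 or male 1 (edgeR adjusted p between 0.051 and 0.37). The transporter gene Slc1a3, with 0.30, the glycolytic enzyme gene Aldoc, with 0.23, and Gja1, which encodes connexin 43, with 0.20, did not pass (edgeR adjusted p = 0.12, 0.69 and 0.49), and these 3 were also chosen after their values were seen. The summed level of the list ranged from 606 to 1546 CPM with the Dnmt3a shRNA (median 760), from 543 to 991 CPM with the Mbd5 shRNA (median 620) and from 555 to 859 CPM with nontargeting (median 663). Called members numbered 5 to 9 when any library was left out, 7 without Dnmt3a shRNA female replicate 1, and 2 without the block. In these bulk libraries fewer cells of a type and less RNA per cell cannot be told apart.

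**Figure D4:**
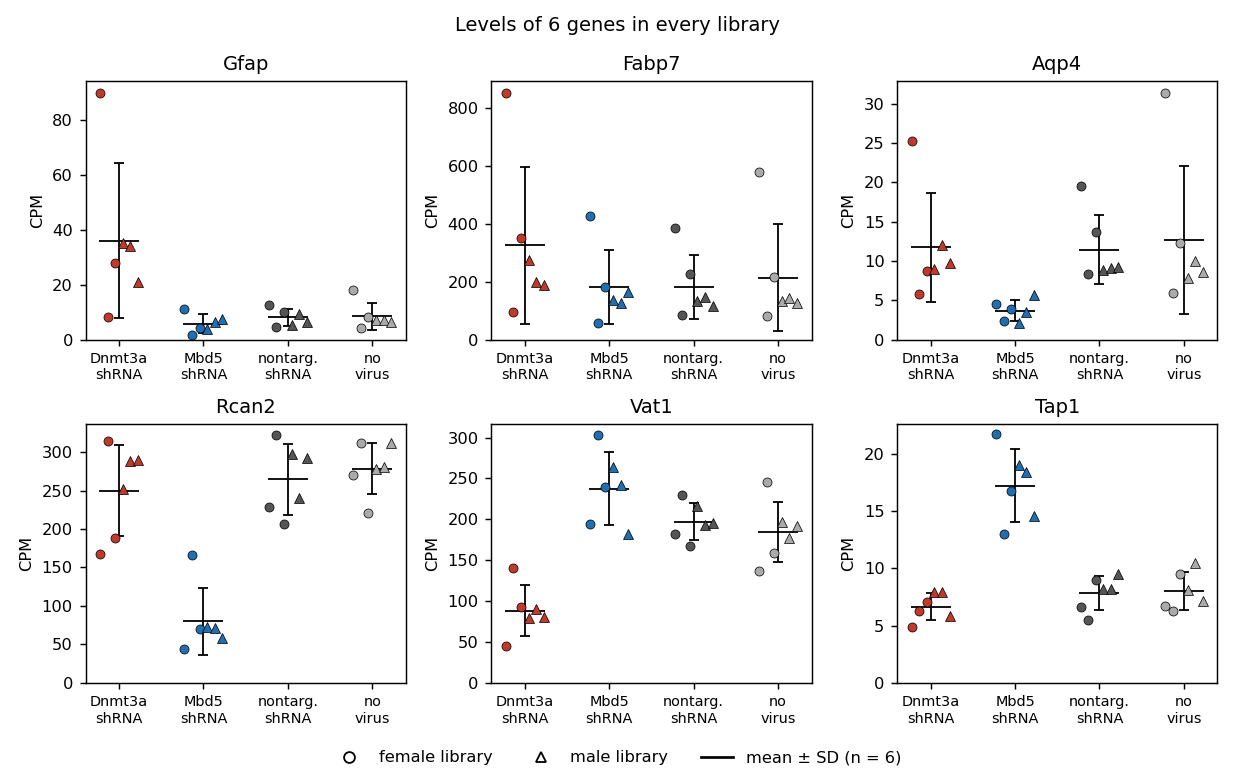
CPM of Gfap, Fabp7, Aqp4, Rcan2, Vat1 and Tap1 in each library of the 4 conditions; circles are female and triangles male libraries, and bars give the mean ± SD of 6 libraries. Gfap and Vat1 stand away from the nontargeting level with the Dnmt3a shRNA, Aqp4, Rcan2 and Tap1 with the Mbd5 shRNA; Fabp7 and Aqp4 are highest in female replicate 1 in the Dnmt3a shRNA, nontargeting and no virus libraries.

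Markers of the other cell types came next. Of 8 neuron markers 1 was higher and 1 lower: Stmn2, a microtubule regulator, at 0.17, and the synaptic calcium sensor Syt1 at −0.41 (edgeR adjusted p = 0.025 and 0.00026). The Stmn2 call was lost without either library of pairs female 1, female 2 or male 2 (edgeR adjusted p between 0.075 and 0.094). Without the block neither neuron marker passed (edgeR adjusted p = 0.20 for Stmn2 and 0.10 for Syt1). The summed level of the neuron markers was 6440 to 7561 CPM with the Dnmt3a shRNA and 6696 to 7322 CPM with the Mbd5 shRNA. Of 13 interneuron markers 3 were higher and 0 lower. Vip, a neuropeptide gene, had 34.7, 3.99 and 9.32 CPM in female and 20.1, 9.19 and 25.2 CPM in male Dnmt3a shRNA libraries, each above its partner with the Mbd5 shRNA, which had 20.4, 3.57 and 5.28 CPM and 7.57, 3.41 and 11.3 CPM. Its log2 ratio between the groups came to 0.97 (SE 0.141, edgeR adjusted p = 0.00035), and Slc32a1, the vesicular GABA transporter, had 0.34. Neither passed without the block, nor did the other interneuron marker. Of 8 oligodendrocyte lineage markers 1 was higher and 2 lower. The transcription factor gene Olig1 had 0.71, the myelin gene Mbp −0.36 and the growth factor receptor gene Pdgfra −1.15 (edgeR adjusted p = 0.0019, 0.0059 and 0.016). None of these 3 passed without the block (edgeR adjusted p = 0.065, 0.19 and 0.059), and Pdgfra also missed without either library of pair male 1 and without Mbd5 shRNA female replicate 2 (edgeR adjusted p between 0.0517 and 0.0648). Of 2 microglia markers tested, at most 2.46 CPM summed in these 12 libraries, 0 passed (edgeR adjusted p of at least 0.57), and of 10 vascular and fibroblast markers 1 was higher, with 0 calls without the block or without any library of pairs female 1, female 3 or male 1. Without either library of pair male 3, 5 interneuron markers were called. The part of cell composition in the differences between the shRNA groups was not tested.

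Genes of synaptic release and of voltage-gated calcium and sodium channels were more often lower than higher with the Dnmt3a shRNA. Of 26 synaptic vesicle release genes 12 were lower and 3 higher, with a median log2 fold change of −0.16. Bsn, the active zone scaffold bassoon, had 96.2, 278 and 165 CPM in female and 217, 197 and 273 CPM in male Dnmt3a shRNA libraries, and 186, 353 and 255 CPM and 353, 287 and 364 CPM with the Mbd5 shRNA. Each pair had the Dnmt3a shRNA library lower, and the log2 fold change of Bsn was −0.60 (SE 0.0694, edgeR adjusted p = 2.9e-05, and 0.19 without the block). Against nontargeting Bsn was at −0.52 with the Dnmt3a shRNA (edgeR adjusted p = 1.2e-05) and at 0.08 with the Mbd5 shRNA (edgeR adjusted p = 0.54). Syt7, a calcium sensor of slow release, had −0.52 with no overlap between the groups, and Syt2, a calcium sensor of fast release, −1.05 with no overlap either. Without the block 2 of the 15 calls were made. Without either library of pair female 1 there were 8 calls, without that of pair male 1 there were 10, and the highest of the 12 counts was 16.

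The channel list had 13 lower and 1 higher of 26 members, with a median of −0.20. Cacnb1, a beta subunit of voltage-gated calcium channels, had 46.6, 87.2 and 74.5 CPM in female and 73, 72.9 and 80.2 CPM in male Dnmt3a shRNA libraries. All of these lay below the lowest Mbd5 shRNA library, at 105 CPM. The log2 fold change of Cacnb1 was −0.74 (SE 0.073, edgeR adjusted p = 9.0e-06), with −0.53 and 0.20 against nontargeting (edgeR adjusted p = 2.6e-05 and 0.079). Of the sodium channel beta subunit genes Scn2b was lower, at −0.42, and Scn3b was higher, at 0.45 (edgeR adjusted p = 0.00012 for both). Against nontargeting Scn2b was at 0.03 and 0.46, and Scn3b at 0.46 and 0.00 with the Dnmt3a and the Mbd5 shRNA. Without the block 3 of the 14 calls were made, and between 13 and 16 when any library was left out.

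Glutamate receptor genes had 9 lower and 2 higher of 22 members, with a median of −0.16. Grin2d, an NMDA receptor subunit, was at −0.59 (SE 0.0857, edgeR adjusted p = 0.00017). The AMPA receptor subunits went apart, with Gria1 at −0.34 and Gria4 at 0.33 (edgeR adjusted p = 0.0018 and 0.0021). Grin1, the obligatory NMDA receptor subunit, was at −0.30. Without the block 1 of these 11 calls was made. The count was 6 without either library of pair male 1 and 7 without either library of pairs female 1 or male 2. Of 13 GABA-A receptor subunits 2 were higher and 0 lower. The list had 0 calls without the block and 1 call in 10 of the 12 fits without 1 library, all but those without a library of pair female 3. Postsynaptic scaffold and adhesion genes had 6 lower and 3 higher of 24. Shank1 was at −0.36 and the adhesion gene Lrrtm2 at 0.54 (edgeR adjusted p = 0.00070 and 7.0e-05). Of these 9 calls 1 was made without the block, where Shank1 missed (edgeR adjusted p = 0.17) and Lrrtm2 passed. Potassium channels were split 5 and 5 of 31, with Kcnn2, a calcium-activated channel, at −0.78 and Kcnj10, the inward rectifier of glia, at 0.75 (edgeR adjusted p = 0.00011 and 0.0014). Without the block 0 of these 10 calls were made (edgeR adjusted p = 0.070 for Kcnn2 and 0.18 for Kcnj10).

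Cholesterol synthesis genes were more often higher than lower with the Dnmt3a shRNA. Of 24 members 13 were higher and 1 lower, with a median log2 fold change of 0.24, and no member differed by as much as 2-fold. Nsdhl, a sterol dehydrogenase, had 148, 94.5 and 131 CPM in female and 123, 128 and 108 CPM in male Dnmt3a shRNA libraries, and 103, 75.4 and 98.2 CPM and 73.3, 98.5 and 97.1 CPM with the Mbd5 shRNA. Its difference on the log2 scale was 0.42 (SE 0.069, edgeR adjusted p = 0.00047, and 0.084 without the block). Idi1, which makes dimethylallyl pyrophosphate, had 0.52, and Dhcr7 and Fdft1, enzymes of the last steps and of squalene formation, had 0.34 and 0.27. The lower member was Insig1, which retains the sterol sensor in the endoplasmic reticulum, at −0.27 (edgeR adjusted p = 0.019), named after its value was seen. The Insig1 call was lost without the block, without either library of pairs female 1 or female 3 and without Dnmt3a shRNA male replicate 3 (edgeR adjusted p between 0.051 and 0.19). Against nontargeting the list's median was 0.13 with the Dnmt3a shRNA and −0.12 with the Mbd5 shRNA. Without the block 0 of these calls were made, and without either library of pairs male 2 or male 1 there were 8 or 9.

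**Figure D5:**
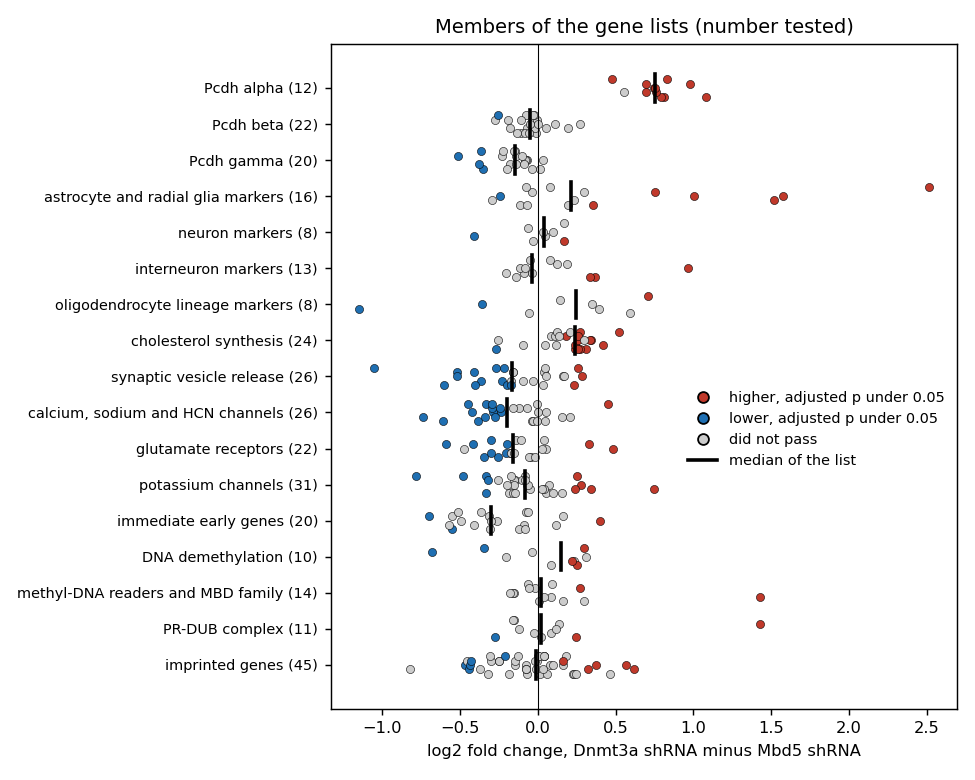
Log2 fold change of Dnmt3a shRNA minus Mbd5 shRNA for every tested member of 17 groups of genes (number tested in brackets); red and blue points were called higher and lower, grey points did not pass, and the black bar is the median of the group. The alpha protocadherins lie to the right of 0 around a median of 0.76, astrocyte markers spread up to 2.51, and channel and vesicle genes lie mostly to the left.

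The machinery of DNA methylation differed little outside the target. Of 6 methyltransferase and maintenance genes tested, Dnmt3a and Dnmt1 were lower. Dnmt1, the maintenance methyltransferase, had 76.4, 86.4 and 82.5 CPM in female and 70.8, 81.5 and 86.1 CPM in male Dnmt3a shRNA libraries, all below the Mbd5 shRNA libraries, which had 88.3 to 100 CPM. The log2 fold change of Dnmt1 was −0.21 (SE 0.0603, edgeR adjusted p = 0.021), with −0.03 and 0.17 against nontargeting (edgeR adjusted p = 0.70 and 0.031). The call was lost without the block (edgeR adjusted p = 0.14), without either library of pairs female 1, male 1 or male 2, and without Mbd5 shRNA male replicate 3 (edgeR adjusted p between 0.0504 and 0.0797). Dnmt3b, the other de novo enzyme, was below 1.6 CPM in every one of the 12 libraries and had 0.07 (edgeR adjusted p = 0.90). Uhrf1, which recruits DNMT1, had −0.37, Uhrf2 0.07 and the remodeler Hells −0.35, and none of these passed.

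Of 10 demethylation genes 3 were higher and 2 lower. Tet3, a dioxygenase that oxidizes methylcytosine, had 107, 168 and 97.9 CPM in female and 126, 138 and 163 CPM in male Dnmt3a shRNA libraries, and 77.4, 148 and 92.9 CPM and 112, 96.9 and 124 CPM with the Mbd5 shRNA. Each pair had the Dnmt3a shRNA library higher, and the log2 fold change of Tet3 was 0.30 (SE 0.0651, edgeR adjusted p = 0.0040, and 0.41 without the block). Tet1 had 0.31 and Tet2 −0.04, which did not pass in edgeR (adjusted p = 0.070 and 0.73). The DNA glycosylase genes Tdg and Smug1, which remove oxidized or deaminated bases, had 0.22 and 0.25. The stress-induced genes Gadd45b and Gadd45g had −0.68 and −0.35 (edgeR adjusted p = 0.0081 and 0.038). The calls of Tdg, Smug1 and Gadd45g were each lost in 4 or more of the 12 fits without 1 library, and 0 of the 5 calls were made without the block. The list had 3 calls without either library of pairs female 2 or male 1 or without Dnmt3a shRNA female replicate 1, and 2 without Mbd5 shRNA female replicate 1. Tdg missed without either library of pairs female 1 or male 3, Smug1 without either of pairs female 2, male 1 or male 2 or without Mbd5 shRNA female replicate 1, and Gadd45g without any female library or either of pair male 1 (edgeR adjusted p between 0.0505 and 0.107).

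The list of readers of methylated DNA and of MBD family members, not all of them readers, had few calls. Of 14 members tested, only Mbd5 and Zbtb4, a zinc finger protein that binds methylated DNA, were higher and 0 were lower. Zbtb4 had 0.27 (SE 0.0596, edgeR adjusted p = 0.0039), with −0.11 and −0.39 against nontargeting (edgeR adjusted p = 0.23 and 0.00028), and it did not pass without the block. Mbd1 had −0.15, Mbd2 −0.02, Mbd3 −0.06, Mbd4 0.29 and Mbd6 −0.16, and none of these passed.

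In the PR-DUB complex Mbd5 and Ogt were higher and Asxl1 lower among 11 members. Ogt, the O-GlcNAc transferase, had 0.25 (edgeR adjusted p = 0.015) and missed the threshold without the block or without either library of pairs male 1 or male 2 (edgeR adjusted p between 0.060 and 0.37). Asxl1, the partner that activates BAP1, had 30.8, 49.2 and 44.5 CPM in female and 43.1, 41 and 48.7 CPM in male Dnmt3a shRNA libraries, and 37.3, 59.5 and 52.9 CPM and 50.1, 53.7 and 56.3 CPM with the Mbd5 shRNA. Its log2 ratio between the groups came to −0.27 (SE 0.0582, edgeR adjusted p = 0.0034, and 0.29 without the block). Of the 3 calls of this list only that of Mbd5 was made without the block. Both groups were under the nontargeting level of Asxl1 (60.8 ± 8.62 CPM, SD, n = 6), at −0.51 and −0.24 (edgeR adjusted p = 9.1e-07 and 0.00385). Bap1 itself had 0.14 and its other partners Asxl2 and Asxl3 0.09 and −0.12, and none passed. Of the other shRNA targets of the series Ash1l had −0.19 (edgeR adjusted p = 0.022), a call lost without the block or without either library of pairs female 1 or male 2 (edgeR adjusted p between 0.0505 and 0.428). Chd8, Kdm6b, Kmt2c, Med13l, Setd5 and Tbr1 lay between −0.14 and 0.11 and did not pass.

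Imprinted genes, whose expression depends on inherited DNA methylation, had 5 higher and 5 lower of 45 tested, with a median of −0.01, so the share called, 22.2%, was close to the 20.6% over all genes. Peg13 and Peg3, both expressed from the paternal copy, had 0.62 and 0.57 (SE 0.0683 and 0.0684, edgeR adjusted p = 1.8e-05 and 4.0e-05). Peg13 was at 0.28 and −0.34 and Peg3 at −0.22 and −0.78 against nontargeting with the Dnmt3a and the Mbd5 shRNA. Grb10, a growth factor receptor adaptor, had 47.1 to 60.2 CPM with the Dnmt3a shRNA and 70.6 to 77.2 CPM with the Mbd5 shRNA, with no overlap and a log2 fold change of −0.47 (edgeR adjusted p = 0.00012). Igf2r, a receptor that clears insulin-like growth factor 2, had −0.44 and did not pass without the block (edgeR adjusted p = 0.16). Without the block 4 of the 10 calls were made. Germline genes listed as silenced by methylation in somatic cells were mostly absent from the test, since 8 of 24 had enough counts. These 8 summed to 79.1 to 85.9 CPM in the nontargeting libraries, so not all of them were silent in these cultures. Of these 1 was higher, Tdrkh, at 0.22 (edgeR adjusted p = 0.011), a call lost without the block and without Dnmt3a shRNA male replicate 2 (edgeR adjusted p = 0.112 and 0.0502).

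Of 43 axon guidance genes 7 were higher and 7 lower, and 5 of the 14 calls were made without the block. Sema3c, a secreted guidance cue, had 49.4, 47.9 and 38 CPM in female and 51.6, 54.4 and 64.2 CPM in male Dnmt3a shRNA libraries, and 24.4, 29.2 and 22.3 CPM and 29.5, 31.8 and 29.7 CPM with the Mbd5 shRNA. The groups did not overlap, and the log2 fold change of Sema3c was 0.86 (SE 0.0693, edgeR adjusted p = 1.6e-06), with 0.32 and −0.54 against nontargeting (edgeR adjusted p = 0.00095 and 6.5e-06). Its receptor subunit gene Nrp1 had 0.45, and Unc5a and Ephb2, which encode a netrin receptor and an ephrin receptor, had −0.40 and −0.38.

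Of 16 p53 target genes 2 were higher and 3 lower, with a median of −0.13. Ccng1, a cyclin induced by p53, had 312, 151 and 199 CPM in female and 252, 204 and 166 CPM in male Dnmt3a shRNA libraries, above all Mbd5 shRNA libraries, which had 97.0 to 133 CPM. Its difference on the log2 scale was 0.88 (SE 0.109, edgeR adjusted p = 0.00032), with 0.54 and −0.34 against nontargeting (edgeR adjusted p = 0.00067 and 0.028). The apoptosis gene Bbc3 had −0.39 (edgeR adjusted p = 0.0018, and 0.20 without the block). Of the 5 calls of this list only that of Ccng1 was made without the block. Immediate early genes had 1 higher and 2 lower of 20, though their median was −0.30, and 7 were called without either library of pair male 3 and 1 without either of pair male 2. Jun had 0.40 (edgeR adjusted p = 0.0016). Egr3 and Junb had −0.55 and −0.70, and each missed the threshold in 6 of the 12 fits without 1 library (edgeR adjusted p between 0.052 and 0.089). Without the block Jun passed and these 2 did not. Of 18 late activity-regulated genes 1 was higher and 4 lower, with Nptx1, a synaptic pentraxin, at −0.80 (SE 0.12, edgeR adjusted p = 0.00040), and 3 were called without either library of pairs female 3 or male 2. Nptx1 alone of these 5 passed without the block.

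Of 16 NCoR and NuRD corepressor genes 3 were higher and 5 lower. Chd3, which encodes a NuRD remodeler, had −0.37 (edgeR adjusted p = 0.00056). Of 11 PRC2 genes 2 were higher and 1 lower, with the accessory subunit gene Jarid2 at 0.44 (edgeR adjusted p = 0.00036), and 1 call was left without either library of pair male 1. Of 23 cortical layer and excitatory identity genes 3 were higher and 3 lower, with Bcl11b, a factor of deep layer neurons, at −0.41 (edgeR adjusted p = 0.00014). Their number was 2 without either library of pair female 1 and 3 without either of pairs male 1 or male 2. Of 22 genes of the integrated stress and unfolded protein responses 0 were higher and 4 lower, with the chaperone gene Dnajb9 at −0.31 (edgeR adjusted p = 0.0045), and 2 calls were left without either library of pairs female 2 or male 1. Of 23 cell cycle genes 0 were higher and 3 lower, with the replication helicase gene Mcm2 at −0.72 (edgeR adjusted p = 0.00029), and 1 call was left without either library of pairs female 1 or male 1. Of 9 interferon-stimulated genes 1 was higher, Stat2 at 0.31 (edgeR adjusted p = 0.0077), and of 7 methyltransferases of histone H3 lysine 36 only Ash1l was called. Without the block Chd3 was the 1 call of 8 among the corepressors and Mcm2 the 1 call of 3 among the cell cycle genes, and 0 calls were made in the PRC2, cortical, stress response, interferon and lysine 36 lists.

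Called genes were somewhat longer than genes tested. The median length of the transcribed locus, from RefSeq annotation that matched 99.4% of genes tested, was 29.6 kb in the higher and 28.0 kb in the lower genes, against 24.4 kb over all. Their median level was also higher, at 36.7 and 46.1 CPM against 23.7 CPM. When genes were split by length into 4 groups of equal size, 7.31% of the shortest and 12.2% of the longest group were called higher, and 8.78% and 12.5% were called lower. The median log2 fold change of the 4 groups lay between −0.01 and 0.01, and in pair female 3 the order of the groups was opposite to that in pair female 1, with 0.12 in the shortest and −0.10 in the longest group against −0.07 and 0.07.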

How the data were processed

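Polyadenylated RNA from cultured neurons was sequenced after a stranded TruSeq mRNA preparation, per the labels' protocols. The authors deposited whole-number read counts per gene. STAR, featureCounts and the build mm10 are named in the submitters' processing notes, while the annotation and the strand setting of the counting are not given in the sources used here. Library columns were matched to samples by name, columns named for luciferase as the nontargeting shRNA, and 6 library columns of no sample were not used. Rows without a gene symbol held between 0.692% and 1.18% of a library's counts and were left out, and 149 rows were summed into another row of the same symbol.

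The 12 libraries (16498188 to 66558546 counts) were fitted with edgeR 4.0.16 (limma 3.58.1, R 4.3.3) after its filter on low counts and TMM scaling, with robust quasi-likelihood tests and 5 residual degrees of freedom. Sex and replicate number formed the block. Deviations from group means correlated between same-numbered libraries at 0.648, 0.749 and 0.348 in females and 0.00296, 0.234 and 0.188 in males, so that the numbers paired the females but not all males at a threshold of 0.1, and values without the block are given too. Comparisons with nontargeting came from an 18-library fit over 14795 genes and share their controls. Alternatives were no block, a block in females only (added after seeing the data), RLE size factors, DESeq2 1.42.0, other filters, all 66 libraries, halved counts and each library left out.

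Named genes are both targets, the 12 largest changes in each direction among called genes of at least 5 CPM with the same sign in all 6 pairs, with Xist and the Y-linked genes Ddx3y, Eif2s3y, Kdm5d and Uty left out but not other X-linked genes, and up to 4 called members of each list by smallest p. A few genes that the rule allows are not reported here. The members and lists were chosen with earlier results of these data known.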

Additional observations from a re-analysis of the deposited data

How the results depend on the processing

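The block with the replicate number decided most calls: without it 534 genes were called over both sexes, 10 in females and 3 in males, and with a block in females only 2263, 581 and 543. Without the filter on low counts 3315, 1604 and 1564 genes were called, and 24 for the difference between the sexes. DESeq2, RLE size factors, a CPM of at least 1, all 66 libraries and halved counts gave counts within 1.5 times of those reported. Leaving out 1 library, which leaves its partner without weight in the block, gave 2031 to 3036 calls over both sexes, 144 to 1185 in females, 165 to 1235 in males and 0 to 5 for the difference between the sexes. Of 156 genes followed, 117 were called with the block. Of these 71 lost the call without it, 13 with the block in females only, 24 with all 66 libraries, 25 without at least 1 library, 1 with RLE size factors, 1 without the filter and 0 with DESeq2, halved counts or a CPM of at least 1. None of the 117 reversed direction in any of these alternatives. Genes that were not called could change sign, as did Aldoc, which lay between −0.05 and 0.45 when any library was left out. The cause of the lost calls was not tested. Depth differed up to the range given for the 12 libraries, and genes near 1 CPM, such as Dnmt3b and Uhrf1, have wide errors (SE 0.277 and 0.306).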
